A study of Homo sapiens with 6 samples.

Results

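The mitochondrially encoded genes are those carried on the mitochondrial chromosome itself, and they were taken as every row of the gene count table placed on chromosome MT. The rule gave 37 of 58735 genes, namely 13 protein genes, 2 rRNA genes and 22 tRNA genes, each listed with a count in every library whatever its level. They were followed in MDA-MB-231, a human triple-negative breast cancer cell line with mesenchymal features. The OE group was 3 libraries of these cells transfected with the construct that the labels call DNAJC12v and carrying the genotype DNAJC12 overexpression, and the VEC group was 3 libraries of the same cells given an empty vector. DNAJC12 is a J-domain co-chaperone that works with HSP70 proteins. The labels do not say whether expression was transient or stable, whether a clone was picked, or whether replicate libraries stem from separate cultures, so p-values measure only the spread between these libraries, which may be technical. Total RNA was the labelled molecule, and whether it was selected for poly(A) tails or depleted of rRNA is not given in the sources used here.

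Human mitochondria keep a small circular genome whose strands are each copied into long transcripts by the polymerase POLRMT. The tRNA genes sit between most of the others, and cutting them out at both ends frees the mRNAs and rRNAs, most of which then gain short poly(A) tails. The proteins made from these mRNAs are core subunits of respiratory complexes I, III and IV and of ATP synthase (complex V), and all other subunits, together with every factor needed for mitochondrial transcription, RNA processing and translation, come from nuclear genes. Most genes lie on one strand, while MT-ND6 and 8 of the 22 tRNA genes are encoded on the opposite one, the light strand.

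The sequences that matter for reading the counts are those where genes touch. The coding sequences of MT-ND5 and MT-ND6 lie tail to tail, so that each ends where its neighbour on the opposite strand ends. Their transcripts may run further, and where the reads of each gene ended was not examined. The last 60 bases of each coding sequence are given 5′ to 3′ on the gene's own strand, with the stop codon in capitals. MT-ND5 is on the plus strand (MT 14089 to 14148) and MT-ND6 on the minus strand (MT 14149 to 14208).
MT-ND5: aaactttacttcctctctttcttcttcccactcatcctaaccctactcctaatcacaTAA
MT-ND6: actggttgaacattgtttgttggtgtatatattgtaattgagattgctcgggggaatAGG
MT-ATP8 and MT-ATP6 share 46 bases on the plus strand (MT 8527 to 8572), which is 22.2% of the 207 bases of MT-ATP8, and the capitals mark the start codon of MT-ATP6 and the stop codon of MT-ATP8.
MT-ATP8 and MT-ATP6 overlap: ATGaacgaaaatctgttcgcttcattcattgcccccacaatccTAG
Of a run of 4 neighbouring light-strand tRNA genes, MT-TA, MT-TN, MT-TC and MT-TY (between MT 5587 and 5891, minus strand), MT-TN and MT-TC held 6127 to 11333 counts a library and MT-TA held 6 over all libraries. They are shown because of that contrast, with the anticodon in capitals.
MT-TA: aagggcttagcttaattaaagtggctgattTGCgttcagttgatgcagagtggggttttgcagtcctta
MT-TN: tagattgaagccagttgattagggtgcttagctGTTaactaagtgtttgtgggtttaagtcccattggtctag
MT-TC: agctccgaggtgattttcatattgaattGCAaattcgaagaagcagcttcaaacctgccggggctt
MT-TY: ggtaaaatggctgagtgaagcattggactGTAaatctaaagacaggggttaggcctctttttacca
All sequences and their coordinates are from GENCODE release 29 on GRCh38, whose gene positions equal those in the count table. Whether counting used strand is not given in the sources used here, so reads of a gene and of an overlapping or antisense neighbour cannot be told apart, and values of the light-strand genes, of MT-ATP8 and of the short tRNA genes are uncertain for that reason.

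The libraries held 17967283 to 18887497 counted reads each. DNAJC12 itself had 522, 523 and 492 counts in OE libraries 1 to 3, against 1, 0 and 0 counts in VEC libraries 1 to 3, as the labels say. Markers of the line were present in all libraries (VIM between 849.5 and 998 CPM). CPM here are counts scaled to each library's total after TMM adjustment of that total for composition. AXL was 1517.5 to 2381 CPM in OE and 1335 to 1480 CPM in VEC. CAV1 was 409 to 771 CPM in OE and 276 to 375 CPM in VEC, so both were higher in OE without overlap. The groups overlapped for VIM, CD44 and S100A4. The hormone receptor genes ESR1 and PGR had at most 3 counts in a library. ERBB2, the other receptor of the triple-negative definition, was measured at 61.3 to 117 CPM in OE libraries and 95.1 to 120.5 CPM in VEC libraries. Of the markers of other cells, the immune genes PTPRC and CD3E had at most 2 counts in an OE library and 0 in every VEC library, and the 3 fibroblast genes summed to 5.17 to 8.27 CPM in OE and 6.11 to 10.3 CPM in VEC. The 2 endothelial genes were 4.02 to 5.60 CPM in OE and 15.3 to 22.8 CPM in VEC, nearly all of it PECAM1, while VWF was at most 0.222 CPM, and the part of PECAM1 in other results was not tested. Among 14520 genes tested with edgeR's quasi-likelihood test, 181 (1.25%) passed a Benjamini-Hochberg adjusted p of 0.05, 85 higher and 96 lower in OE. These counts were 1805 and 1560 without OE library 2, 141 and 108 without OE library 1, 19 and 6 without OE library 3, 15 and 10 without VEC library 1, 21 and 20 without VEC library 2, and 16 and 11 without VEC library 3. Libraries differed in the GC content of what was counted, from 51.9% to 54.3% in OE and from 52.4% to 53.7% in VEC, and OE library 2 stood at the high end, with the lowest TMM factor (0.853, against 0.996 to 1.09 in the others). Fits with a GC correction and without OE library 2 are given below, and the cause of these differences between libraries was not tested.

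Mitochondrially encoded genes took 5.88, 6.60 and 6.22% of all counts in OE libraries 1 to 3, against 9.06, 6.32 and 6.63% in VEC libraries 1 to 3. VEC library 1 stood alone at the top and the other 5 libraries lay close together, with OE library 2 above VEC library 2, so the groups overlapped. The means were 6.23 ± 0.359% in OE and 7.34 ± 1.5002% in VEC (SD, n = 3 each), a difference of -1.10 percentage points that did not exceed the spread between libraries (two-sided exact permutation test, p = 0.2, adjusted p = 0.5 over 10 share tests, where the smallest p that 3 against 3 allows is 0.1). Without VEC library 1 the VEC mean was 6.48 ± 0.215% (n = 2) and the difference -0.24 points. Counting error was far smaller than any of this, since the 95% Wilson interval of OE library 1 ran from 5.87 to 5.89% (intervals cover counting error only). In bulk RNA, less mitochondrial RNA per cell, fewer cells rich in mitochondria and more nuclear transcripts in the total cannot be told apart.

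**Figure D1:**
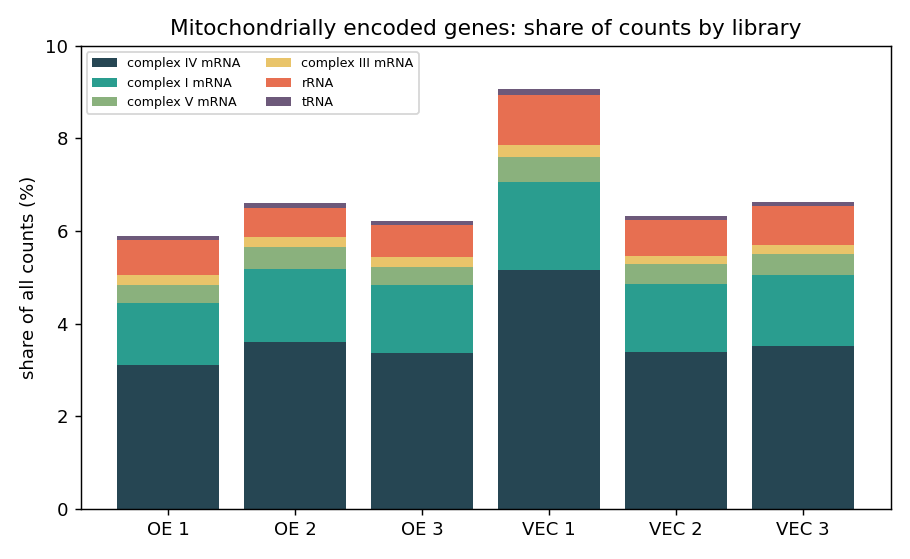
Share of all counts (%, y axis) taken by mitochondrially encoded genes in each of the 3 OE and 3 VEC libraries (x axis), stacked by respiratory complex of the mRNA, rRNA and tRNA. VEC library 1 reaches 9.06%, and the other 5 libraries lie between 5.88 and 6.63%.

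The mRNAs made up most of this share, at 5.45 ± 0.410% of all counts in OE libraries and 6.34 ± 1.32% in VEC libraries (exact permutation p = 0.4, n = 3 each). The rRNAs were 0.755, 0.628 and 0.697% of counts in OE libraries 1 to 3, against 1.08, 0.765 and 0.846% in VEC libraries 1 to 3. Every OE library lay below every VEC library for rRNA, with OE library 1 just under VEC library 2, and the exact permutation p of 0.1 (adjusted p = 0.5) was the smallest possible. Without VEC library 1 the difference, OE minus VEC, was -0.131 points for mRNA and -0.112 points for rRNA, against -0.890 and -0.205 points with all libraries. The tRNA genes gave 0.0899 ± 0.0127% of counts in OE and 0.0992 ± 0.0172% in VEC (exact permutation p = 0.6, n = 3 each).

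Of the 37 genes, 22 had enough counts to be tested (all 13 protein genes, both rRNA genes and 7 tRNA genes), and a gene could pass this filter through either group. None of the 22 passed the adjusted threshold of 0.05 in edgeR, against 1.25% of all genes tested, and DESeq2's Wald test and limma on log2(FPKM + 1) also called none. At an unadjusted edgeR p under 0.05, 3 of the 22 were lower in OE (MT-ND5, MT-ND6 and MT-TV) and 0 were higher, against 6.86% of all genes lower and 14.1% in either direction. The median log2 fold change of the 22, OE over VEC, was -0.07, and that of all 14520 genes was 0.05. In 4 of the 22 (MT-RNR2, MT-ND5, MT-ND6 and MT-TV, all lower in OE) the CPM of the groups did not overlap, while 10.8% of all genes tested were lower without overlap and 20.1% did not overlap in either direction, so this count was near the background for either direction. When known changes were put into counts simulated from these libraries, 31% of the 2-fold ones and 94% of the 4-fold ones were found. The simulation gave every gene the same dispersion, and apart from those changes its libraries differed only in their totals. The changed genes were drawn from all genes tested, so these rates do not give the power for the 22.

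**Figure D2:**
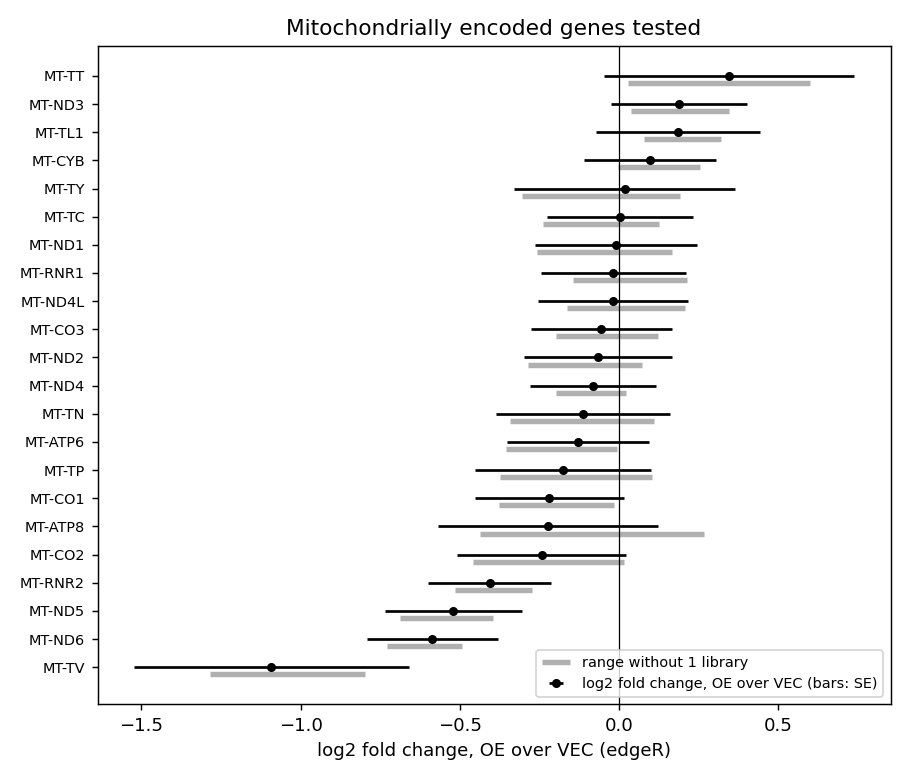
Log2 fold change, OE over VEC (x axis), of the 22 mitochondrially encoded genes tested (y axis), with black bars for the standard error and grey bars for the range when any 1 library is left out. MT-ND5, MT-ND6, MT-RNR2 and MT-TV have the lowest values and stay below 0 when any 1 library is left out, and none of the 22 passed the adjusted threshold.

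Complex I passes electrons from NADH to ubiquinone, and 7 of its subunits are mitochondrially encoded. MT-ND5 (MT 12337 to 14148), a subunit of the proton-pumping membrane arm, had 905, 1262 and 939 CPM in OE libraries 1 to 3, against 1747, 1404 and 1303 CPM in VEC libraries 1 to 3. All 3 OE libraries lay below all 3 VEC libraries, with OE library 2 and VEC library 3 the nearest pair. Its log2 fold change was -0.52 ± 0.22 (SE), with an unadjusted edgeR p of 0.0380 and an edgeR adjusted p of 0.326, so it did not pass. MT-ND6 (MT 14149 to 14673), the light-strand mRNA and another membrane-arm subunit, had 284, 394 and 318 CPM in OE libraries 1 to 3, against 550.3, 498 and 448 CPM in VEC libraries 1 to 3. Again no OE library reached the lowest VEC library, and the highest VEC value was in library 1. The log2 fold change of MT-ND6 was -0.59 ± 0.20 (SE), with an unadjusted p of 0.0174 and an adjusted p of 0.229 by edgeR.

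OE library 2 had the highest CPM of the OE libraries for both genes. Without it, 2 of the tested members were called lower in OE, MT-ND5 (log2 fold change -0.69, edgeR adjusted p = 0.0106) and MT-ND6 (-0.73, edgeR adjusted p = 0.00558), but 22.5% of all genes were then called as well. Without both libraries numbered 2, MT-CO2 joined them (3 of 22, where 18.7% of all genes were called), and with a GC correction of the counts, which made 17.4% of all genes pass, none of the 22 did. Leaving out any other single library called none of the mitochondrially encoded genes, and left the fold changes between -0.61 and -0.40 for MT-ND5 and between -0.66 and -0.49 for MT-ND6.

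The other 5 complex I mRNAs overlapped between the groups. MT-ND4, a membrane-arm subunit read from a joint mRNA with MT-ND4L, had 4093, 5266 and 4321 CPM in OE libraries 1 to 3, against 5545, 4451 and 4470.3 CPM in VEC libraries 1 to 3. MT-ND1, which sits next to the ubiquinone site, had 2578, 4646 and 3383 CPM in OE libraries 1 to 3, against 4365, 3125 and 3187 CPM in VEC libraries 1 to 3. OE library 2 was the highest of the 6 libraries for MT-ND1, and VEC library 1 the highest for MT-ND4.
MT-ND2, a membrane-arm subunit, had 2541, 4137 and 3003 CPM in OE libraries 1 to 3, against 3991, 3036 and 3114 CPM in VEC libraries 1 to 3. MT-ND3, a small membrane subunit, had 1159, 1836 and 1599.8 CPM in OE libraries 1 to 3, against 1356, 1404 and 1272 CPM in VEC libraries 1 to 3, so that here VEC library 1 did not stand above its group. MT-ND4L, whose gene shares 7 bases with MT-ND4, had 749, 1017 and 857 CPM in OE libraries 1 to 3, against 1151, 733 and 774 CPM in VEC libraries 1 to 3. The log2 fold changes of these 5 genes lay between -0.08 (MT-ND4) and 0.19 (MT-ND3), with the groups overlapping in each.

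Complex III has a single mitochondrially encoded subunit, cytochrome b, which holds the sites where ubiquinol is oxidised and ubiquinone is reduced. Its gene MT-CYB (MT 14747 to 15887) had 2088, 2559 and 2122 CPM in OE libraries 1 to 3, against 2569, 1909.9 and 1851 CPM in VEC libraries 1 to 3. The 2 groups overlapped, with VEC library 1 at the top and the other VEC libraries at the bottom. The log2 fold change was 0.10 ± 0.21 (SE, edgeR adjusted p = 0.881), above 0 where 16 of the 22 members were below it, but it was -0.0799 without both libraries numbered 2.

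Complex IV reduces oxygen, and its 3 mitochondrially encoded subunits form the catalytic core. MT-CO1 (MT 5904 to 7445), which binds the heme and copper centre where oxygen reacts, had 14834, 21499.8 and 17168 CPM in OE libraries 1 to 3, against 26455, 17903 and 17906 CPM in VEC libraries 1 to 3. MT-CO2, which takes electrons from cytochrome c, had 6686, 11071 and 8274 CPM in OE libraries 1 to 3, against 13776, 8536 and 8508 CPM in VEC libraries 1 to 3. MT-CO3, the core subunit without redox centres, had 6969, 9594 and 7666 CPM in OE libraries 1 to 3, against 10446, 7539.9 and 7205 CPM in VEC libraries 1 to 3. In each of the 3, VEC library 1 was the highest of all 6, OE library 2 came next, and the groups overlapped. The log2 fold changes were -0.22 ± 0.23 for MT-CO1, -0.24 ± 0.27 for MT-CO2 and -0.06 ± 0.22 for MT-CO3 (SE). Without VEC library 1, that of MT-CO1 was -0.015, that of MT-CO2 0.0163 and that of MT-CO3 0.12. MT-CO3 was also above 0 without OE library 1 (0.0315).

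Complex V makes ATP from the proton gradient. MT-ATP6, the subunit a of its proton channel, had 3436, 5479.7 and 3839 CPM in OE libraries 1 to 3, against 5232, 4354 and 4369 CPM in VEC libraries 1 to 3. MT-ATP8, a small membrane subunit, had 22.2, 34.0 and 29.01 CPM in OE libraries 1 to 3, against 52.6, 24.2 and 22.7 CPM in VEC libraries 1 to 3. VEC library 1 held 2.24 times the mean CPM of the other VEC libraries for MT-ATP8, the largest such ratio among the 22 genes, and 1.20 times for MT-ATP6. Neither gene passed, with log2 fold changes of -0.13 ± 0.22 for MT-ATP6 and -0.22 ± 0.35 for MT-ATP8 (SE), and without VEC library 1 that of MT-ATP8 was 0.27.

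The 2 rRNAs form the cores of the subunits of the mitochondrial ribosome. MT-RNR2 (MT 1671 to 3229), the 16S rRNA of the large subunit, had 5384, 5486 and 5145 CPM in OE libraries 1 to 3, against 8394, 6203 and 6623 CPM in VEC libraries 1 to 3. The OE libraries lay within a narrow band below all VEC libraries, and VEC library 1 stood highest. Its log2 fold change was -0.41 ± 0.19 (SE), with an edgeR adjusted p of 0.387. MT-RNR1, the 12S rRNA of the small subunit, had 1541, 1881 and 1725 CPM in OE libraries 1 to 3, against 2269, 1477 and 1463 CPM in VEC libraries 1 to 3. These groups overlapped, with a log2 fold change of -0.02 ± 0.23 (SE).

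The tRNA genes differed far more from each other than between groups. MT-TN, the tRNA for asparagine, had 307, 559 and 433 CPM in OE libraries 1 to 3, against 607, 401 and 396 CPM in VEC libraries 1 to 3. MT-TC, the tRNA for cysteine, had 327, 528 and 355 CPM in OE libraries 1 to 3, against 444, 394 and 369 CPM in VEC libraries 1 to 3. These 2 light-strand genes held most tRNA counts, and both overlapped between groups.
MT-TP, the tRNA for proline, had 42.5, 65.9 and 60.2 CPM in OE libraries 1 to 3, against 86.7, 47.4 and 56.5 CPM in VEC libraries 1 to 3. MT-TY, the tRNA for tyrosine, had 21.2, 34.9 and 18.4 CPM in OE libraries 1 to 3, against 14.5, 30.4 and 28.6 CPM in VEC libraries 1 to 3, and it was lowest in VEC library 1, the library with the highest mitochondrial share. The log2 fold changes of these 4 genes lay between -0.18 (MT-TP) and 0.02 (MT-TY).
The other 3 tested tRNA genes, MT-TL1 (leucine), MT-TT (threonine) and MT-TV (valine), had at most 11.1 CPM. MT-TV had 11, 6 and 8 counts in OE libraries 1 to 3, against 16, 13 and 25 counts in VEC libraries 1 to 3. Its groups did not overlap, at a log2 fold change of -1.09 ± 0.43 (SE, edgeR adjusted p = 0.297), but these are few counts. The remaining 15 tRNA genes had between 5 and 44 counts over all 6 libraries together and were not tested.

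Levels were compared between genes per length, in the deposited fragments per kilobase of length (FPKM), scaled to a depth that differed from the count total. MT-CO2 was the highest of all genes in the table by FPKM in every library (12573 FPKM in OE libraries and 14933 FPKM in VEC libraries on average), followed by MT-CO1 (11459 FPKM in OE libraries and 13385 FPKM in VEC libraries) and MT-CO3 (10206 FPKM in OE libraries and 10652 FPKM in VEC libraries). The short tRNA gene MT-TN also ranked between 4 and 7 by FPKM. It averaged 5876 FPKM in OE libraries and 6376 FPKM in VEC libraries. Another short tRNA gene, MT-TC, was near it, at 6059 FPKM in OE libraries and 6068 FPKM in VEC libraries. By raw count MT-CO1 ranked 1 or 2 among all genes in every library, and 8 mitochondrially encoded genes stood among the 20 highest in each. At the low end of the protein genes were MT-ND6 (627 FPKM in OE libraries and 945 FPKM in VEC libraries), MT-ND5 (566 FPKM in OE libraries and 815 FPKM in VEC libraries) and MT-ATP8 (136 FPKM in OE libraries and 159 FPKM in VEC libraries). MT-CO2 exceeded MT-CO1 in every library, by less than either varied between libraries. The FPKM of MT-ATP8 lay below that of all other protein and rRNA genes in every library. MT-ATP8 shares 46 of its 207 bases with MT-ATP6, and how reads there were assigned is not given. Its low FPKM therefore need not mean a lower transcript level.

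**Figure D3:**
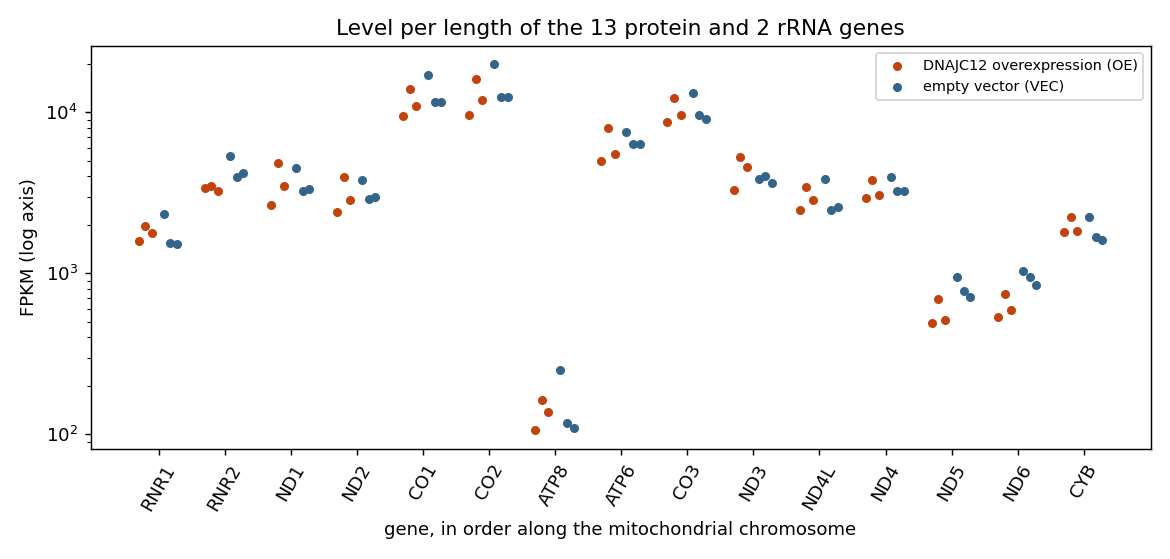
FPKM (log axis) of the 13 protein and 2 rRNA genes (x axis, in order along the mitochondrial chromosome) in each library, with OE points left of VEC points. MT-CO2, MT-CO1 and MT-CO3 are highest, and MT-ATP8 is lowest in all 6 libraries.

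Because the total mitochondrial share varied between libraries, each gene was also expressed as a percentage of the mitochondrial counts of its library. On this scale 8 of the 22 genes had groups that did not overlap, where 15.3% of all genes tested did not overlap relative to the same totals. That rate is not a like background. Nearly all of those genes are nuclear, so their ratios carry the variation of the mitochondrial total, while the members are parts of that total. No excess among the members can be read from the 2 rates. MT-ND5, MT-ND6 and MT-CO1 were the lower ones in OE, and MT-CO3, MT-CYB, MT-ND4L, MT-TL1 and MT-TT the higher ones. Each had an exact permutation p of 0.1, the smallest that 3 against 3 libraries allow (adjusted p = 0.275 over the 22 genes). The percentages of a library share a total and are not independent. MT-TT had only 15 to 39 counts a library.
MT-ND6 was 0.526, 0.510 and 0.519% in OE libraries 1 to 3, against 0.618, 0.784 and 0.707% in VEC libraries 1 to 3. The OE libraries lay within a very narrow band under all VEC libraries. MT-ND5 was 1.68, 1.63 and 1.53% in OE libraries 1 to 3, against 1.96, 2.21 and 2.06% in VEC libraries 1 to 3, again with no overlap.
MT-CYB was 3.87, 3.31 and 3.46% in OE libraries 1 to 3, against 2.88, 3.01 and 2.92% in VEC libraries 1 to 3, and here all OE libraries lay above all VEC libraries. MT-CO3 averaged 12.6 ± 0.268% in OE libraries and 11.7 ± 0.261% in VEC libraries, and MT-CO1 averaged 27.8 ± 0.272% in OE libraries and 28.7 ± 0.852% in VEC libraries (SD, n = 3 each). The shift of MT-CO1 was small beside its share, and VEC library 1 was the highest for it. An edgeR fit across all genes with the mitochondrial total as library size, added after the data had been examined, called none of the 22 and 1.46% of all genes. Of the 16 members below 0 with TMM scaling, 9 were above 0 in that fit, which had log2 fold changes of -0.36 for MT-ND5 (edgeR adjusted p = 0.547) and -0.44 for MT-ND6 (edgeR adjusted p = 0.481).

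**Figure D4:**
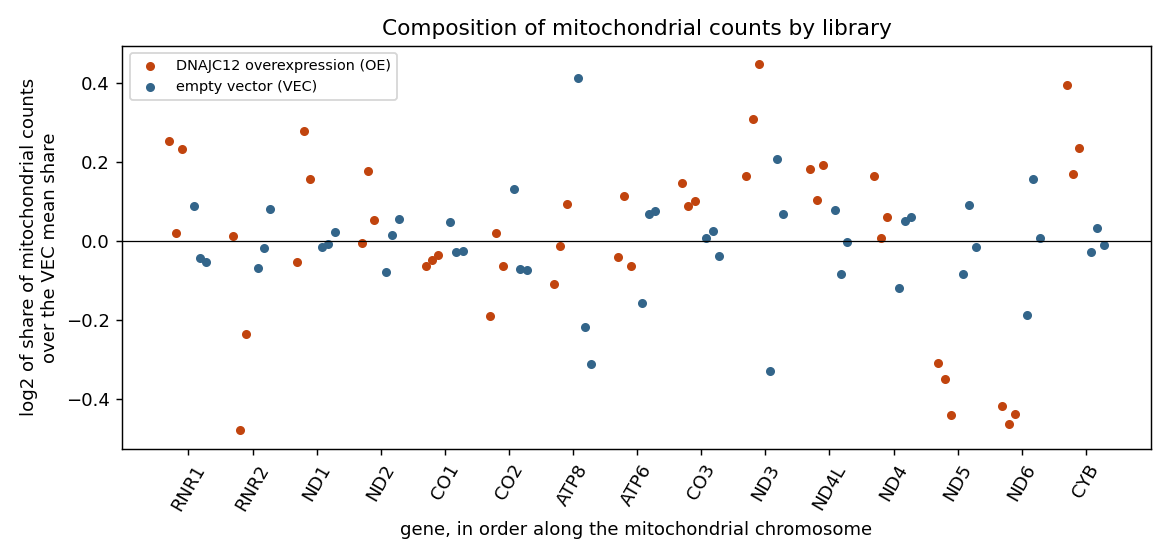
Log2 of each gene's share of mitochondrial counts over the VEC mean share (y axis) for the 13 protein and 2 rRNA genes in order along the chromosome (x axis), 1 point per library with OE left of VEC. OE points of MT-ND5 and MT-ND6 lie below all VEC points, and OE points of MT-CYB lie above them.

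Summed by complex, the mRNA counts of complex I were 26.8 ± 0.232% of mitochondrial mRNA counts in OE libraries and 25.9 ± 1.44% in VEC libraries (SD, n = 3 each, exact permutation p = 0.3). Complex III, which is MT-CYB alone, was 4.51, 3.72 and 3.96% in OE libraries 1 to 3, against 3.33, 3.48 and 3.401% in VEC libraries 1 to 3, with no overlap (exact permutation p = 0.1, adjusted p = 0.5). Complex IV was 61.5 ± 0.294% in OE and 63.1 ± 2.19% in VEC (exact permutation p = 0.2), and complex V 7.57 ± 0.404% in OE and 7.63 ± 0.682% in VEC (exact permutation p = 0.9, SD, n = 3 each). Without VEC library 1 the difference, OE minus VEC, was 0.107 points for complex I, against 0.940 with all libraries, and -0.278 points for complex IV, against -1.54. For complex III it was 0.440 points without OE library 1, against 0.662 with all libraries. Light-strand genes together were 1.93 ± 0.114% of mitochondrial counts in OE and 2.04 ± 0.124% in VEC (exact permutation p = 0.4, n = 3 each), a sum in which tRNA genes outweigh MT-ND6.

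Ratios between members need no scaling to a library total. The ones given here were chosen after the values had been seen, and are a description with no test. The count of MT-ND5 over that of MT-CYB, its neighbour downstream of MT-ND6, was 0.433, 0.493 and 0.442 in OE libraries 1 to 3, against 0.680, 0.735 and 0.704 in VEC libraries 1 to 3. MT-ND6 over MT-CYB was 0.136, 0.154 and 0.150 in OE libraries 1 to 3, against 0.214, 0.261 and 0.242 in VEC libraries 1 to 3. In both ratios the groups were well apart, and VEC library 1, which had the highest mitochondrial share, had the lowest ratio of its group.
MT-ND6 over MT-ND5 was 0.322 ± 0.0149 in OE and 0.338 ± 0.0204 in VEC (SD, n = 3 each), and the groups overlapped. MT-RNR2 over MT-RNR1 was 3.49, 2.92 and 2.98 in OE libraries 1 to 3, against 3.70, 4.20 and 4.53 in VEC libraries 1 to 3, with OE library 1 close to VEC library 1. Of the 9 ratios computed, 4 overlapped between groups, among them MT-CO2 over MT-CO1, at 0.483 ± 0.0321 in OE and 0.491 ± 0.0258 in VEC (SD, n = 3 each).

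**Figure D5:**
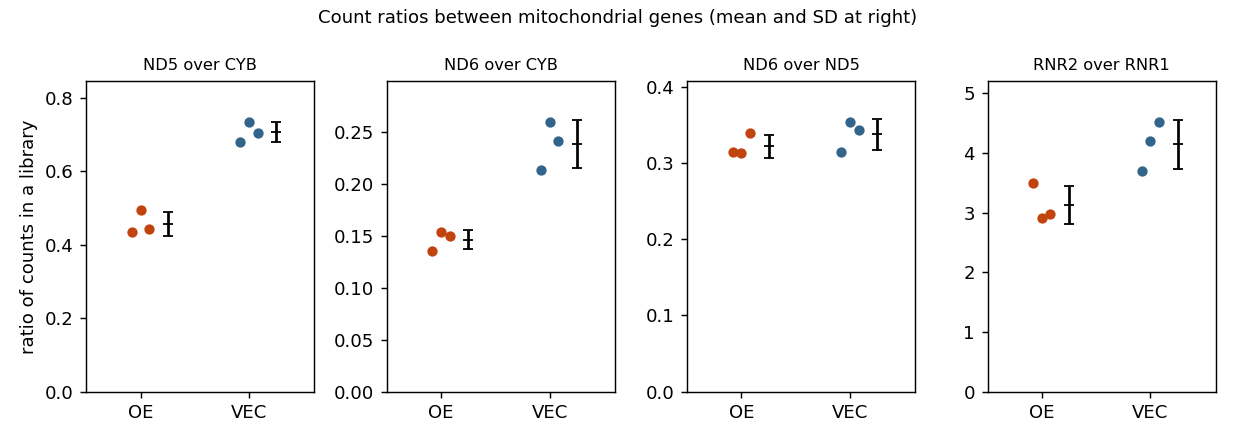
Ratio of counts in a library (y axis, from 0) for 4 pairs of mitochondrially encoded genes, with 1 point per library, OE left of VEC, and the mean and SD of the 3 libraries beside the points. MT-ND5 over MT-CYB is 0.433 to 0.493 in OE and 0.680 to 0.735 in VEC, while MT-ND6 over MT-ND5 overlaps.

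Nuclear copies of mitochondrial DNA can share reads with the genes they came from. The table has 407 rows for such copies, of which 22 had any count, and 3 of them on chromosome 1 held 99.8% of the 69353 counts. MTND2P28 is 98.2% identical to MT-ND2, MTATP6P1 98.5% identical to MT-ATP6, and MTCO1P12 98.6% identical to MT-CO1. Counts of MTND2P28 were 8.74 to 9.16% of those of MT-ND2 in OE libraries and 6.88 to 8.95% in VEC libraries, the low value being VEC library 1. All copies together took 0.0619 ± 0.00788% of counts in OE and 0.0640 ± 0.00216% in VEC (exact permutation p = 0.9, n = 3 each). Counts of MTATP6P1 were 5.25 to 7.78% of those of MT-ATP6 in OE libraries and 5.35 to 5.93% in VEC libraries. Counts of MTCO1P12 were 0.457 to 0.559% of those of MT-CO1 in OE libraries and 0.225 to 0.563% in VEC libraries. How reads were divided between each gene and its copy is uncertain. Neither MT-ND5 nor MT-ND6 has a copy among the 3, but whether their reads were shared with other copies was not examined.

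The genes whose CPM ran most like the mitochondrial share over the 6 libraries, among 12466 ranked, were OSER1 (Pearson r = 0.990), CD44 (0.979), COX7C (0.941), SUMF1 (0.940) and VDAC1 (0.935). The correlation is of log2 values over 6 points that share libraries and scaling, and VEC library 1 was the highest for each of the 5 genes. COX7C, a nuclear subunit of complex IV, had 223, 249.6 and 243 CPM in OE libraries 1 to 3, against 318, 265 and 252 CPM in VEC libraries 1 to 3. VDAC1 is the main pore of the outer mitochondrial membrane, and CD44 is a surface receptor for hyaluronan.

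The nuclear genes that serve the mitochondrial genome showed a single call. Of 267 tested genes in 13 lists, 1 was higher in OE and 0 were lower (edgeR adjusted p under 0.05), against 0.585% higher and 0.661% lower among all genes tested. At an unadjusted edgeR p under 0.05 there were 5 higher and 10 lower, where all 14520 genes held 1052 higher and 996 lower (14.1% in either direction). The median log2 fold change over the lists was -0.10 and 173 of the 267 lay below 0, beside a median of 0.05 and 6548 of 14520 below 0 over all genes. Without OE library 2 the lists held 9 genes higher and 31 lower, in a fit that called 22.5% of all genes.
The call was GARS, the glycyl-tRNA synthetase of both cytosol and mitochondria, which had 411, 339 and 416 CPM in OE libraries 1 to 3, against 174, 129 and 144 CPM in VEC libraries 1 to 3. Its log2 fold change was 1.38 ± 0.21 (SE, edgeR adjusted p = 0.0144). Leaving out OE library 3 or any VEC library ended this call, with edgeR adjusted p between 0.0893 and 0.135 and log2 fold changes of at least 1.27. The other 21 genes tested in its list, which holds synthetases together with GATB, GATC and QRSL1, were not called. Among them KARS, which also serves both compartments, had a log2 fold change of -0.09 ± 0.18.

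None of the genes that copy, transcribe or process mitochondrial DNA and RNA was called. Of 8 transcription genes tested none passed, POLRMT averaging 71.4 ± 24.6 CPM in OE libraries and 96.6 ± 19.7 CPM in VEC libraries (SD, n = 3 each), with a log2 fold change of -0.44 ± 0.28 (SE, edgeR adjusted p = 0.534). TFB2M, which opens the promoter for POLRMT, had a log2 fold change of 0.39 ± 0.33 (edgeR adjusted p = 0.650). Of 21 genes of RNA processing, polyadenylation and stability none passed, and 2 were lower at an unadjusted edgeR p under 0.05, against 6.86% of all genes.
ELAC2, the nuclease that cuts the 3′ ends of mitochondrial tRNAs, averaged 109 ± 24.2 CPM in OE libraries and 156 ± 12.4 CPM in VEC libraries (SD, n = 3 each). Its log2 fold change was -0.52 ± 0.22 (SE), with an unadjusted edgeR p of 0.0403 and an edgeR adjusted p of 0.331. ELAC2 was called lower without OE library 2 (edgeR adjusted p = 0.00573) and with the GC correction (edgeR adjusted p = 0.00846), and so was POLRMT (0.0144 and 0.0198), in fits that called 22.5% and 17.4% of all genes. TBRG4, an RNA-binding protein of the FASTK family, had a log2 fold change of -0.23 ± 0.26 (SE).

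In the lists for replication and nucleoid (12 tested), tRNA modification (20), translation factors (14), chaperones and proteases (14) and mitochondrial ribosomal proteins (78), 0 genes passed. SSBP1, which coats single-stranded mitochondrial DNA, had a log2 fold change of 0.26 ± 0.22 and TOP3A, a topoisomerase, -0.37 ± 0.23 (SE). The protease LONP1 averaged 467 ± 137 CPM in OE libraries and 315 ± 42.8 CPM in VEC libraries (SD, n = 3 each), with a log2 fold change of 0.57 ± 0.25 (SE, edgeR adjusted p = 0.342). With the GC correction LONP1 was called higher (edgeR adjusted p = 0.00159, where 17.4% of all genes were called).
Of the other named genes, NSUN2 had a log2 fold change of 0.04 ± 0.21 and CDK5RAP1 -0.30 ± 0.22, both tRNA-modifying enzymes. For the elongation factor TUFM it was -0.18 ± 0.26, for the membrane insertase OXA1L -0.21 ± 0.20 and for the chaperonin HSPD1 -0.17 ± 0.34. The ribosomal proteins MRPL14 and MRPL49 had 0.01 ± 0.25 and 0.19 ± 0.26 (all SE).

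The nuclear subunits of the same respiratory complexes were not called either. The 9 nuclear subunits of complex III all had log2 fold changes below 0, with a median of -0.25, where MT-CYB stood at 0.10 and none passed. CYC1 had -0.25 ± 0.29 and UQCRC1 -0.24 ± 0.26. Median log2 fold changes were -0.08 for 36 nuclear subunits of complex I, -0.15 for 11 of complex IV and -0.10 for 18 of complex V, beside 0.05 over all genes.
Among single subunits, NDUFS8 had a log2 fold change of 0.07 ± 0.28 and NDUFS5 -0.27 ± 0.19 in complex I, COX4I1 -0.01 ± 0.23 and COX7C -0.22 ± 0.19 in complex IV, and ATP5F1B -0.32 ± 0.21 and ATP5F1A -0.25 ± 0.18 in complex V. Complex II has no mitochondrially encoded subunit. Its 4 genes had a median of -0.08, and SDHA had -0.43 ± 0.22 and SDHC -0.12 ± 0.19 (SE, edgeR adjusted p = 0.415 for SDHA). Without OE library 2, which left 22.5% of all genes called, the named genes SDHA, CYC1, UQCRC1, ATP5F1B, TOP3A, TBRG4 and TUFM were also called lower and TFB2M higher, with edgeR adjusted p between 0.00944 and 0.0333, and SDHA was called lower with the GC correction (0.0493).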

How the data were processed

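Gene counts, deposited by the authors as raw whole numbers for 58735 genes, and the deposited FPKM values were used for 3 OE and 3 VEC libraries of MDA-MB-231 cells. The submitters' processing notes name HISAT2 2.0.5 as aligner and hg19 as build, but all 58735 gene positions in the table equal those of GENCODE release 29 on GRCh38, which was therefore used for coordinates and sequences. No source used here gives the counting program or its use of strand. Depths implied by the deposited FPKM were 0.854 to 1.10 times the count totals of the libraries, near the TMM factors (0.853 to 1.09). The deposited FPKM were therefore not scaled to the plain totals, and fits on them are not independent of TMM-like scaling. No 2 libraries held identical values.

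Counts were tested across all genes with edgeR 4.0.16 (R 4.3.3; TMM scaling, filterByExpr with a minimum count of 10 and a minimum total of 15, robust quasi-likelihood test of group), with Benjamini-Hochberg adjustment over 14520 genes and a threshold of 0.05. Genes not tested held 0.129% of counts. The edgeR step was tested on simulated data with 200 changed genes, of which 31% at 2-fold and 94% at 4-fold were recovered, with 8.09% false calls. Shares were compared over libraries with two-sided exact permutation tests (smallest p 0.1), and Wilson 95% intervals cover counting error only. Alternatives were DESeq2 1.42.0 (size factors, Wald test), limma 3.58.1 on log2(FPKM + 1) and log2(FPKM + 0.1), other filters, a loess GC correction (span 0.3), a replicate block, library sizes without some genes, and leaving out libraries. Scaling to the mitochondrial total and the ratios between genes were added after seeing the data.

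The members and the nuclear lists were chosen with earlier results of these data known. The rule for naming genes was all tested members, up to 4 called genes in each nuclear list or, with fewer than 2 called, the 2 of highest mean CPM, and the 5 nuclear genes most correlated with the mitochondrial share.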

Additional observations from a re-analysis of the deposited data

How the results depend on the processing

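Of 439 log2 fold changes of the 22 tested members under 20 alternatives, 375 kept their direction and their side of the threshold, 9 passed it and 55 changed sign (MT-TV had no value with the filter of 1 CPM in 3 libraries). MT-ND5, MT-ND6, MT-RNR2, MT-TV, MT-CO1 and MT-ATP6 stayed below 0 under all alternatives, except MT-ATP6 with the scaling to the mitochondrial total. MT-ND3, MT-TL1 and MT-TT stayed above 0 under all alternatives. The cause of the changes was not tested. Without OE replicate 2, the counts called among all genes were 1805 higher and 1560 lower, and leaving out 1 library at a time they ran from 15 to 1805 higher and from 6 to 1560 lower. Calls among the members were then 0 to 2 lower, and among the nuclear lists 0 to 9 higher and 0 to 31 lower.

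Among all genes, 265 were higher and 258 lower with DESeq2's Wald test, 366 and 322 without a filter on low counts, 1283 and 1238 with the GC correction (17.4% of genes), 1514 and 1240 without both libraries numbered 2 (18.7%), and 8 and 4 with limma on log2(FPKM + 1) without a filter. Without both libraries numbered 2, 3 members were called lower, MT-CO2 (-0.58, edgeR adjusted p = 0.0413), MT-ND5 and MT-ND6. In the nuclear lists 2 were higher with DESeq2's Wald test, 2 higher and 1 lower without a filter, 7 and 20 with the GC correction, 6 and 22 without both libraries numbered 2, and 0 higher with limma without a filter.

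Same-numbered libraries are not known to be paired: deviations of OE and VEC libraries correlated at 0.448 for number 1, 0.585 for number 2 and 0.0335 for number 3, and OE library 3 correlated better with VEC library 1 (0.225). With the replicate block 1011 genes were higher and 926 lower (13.3%), and with the replicate block and GC correction 1579 and 1516 (21.3%). Under both, 2 members were called lower, with edgeR adjusted p of 0.0490 and 0.0495 for MT-ND5 and 0.0146 and 0.0233 for MT-ND6. The block called 5 higher and 8 lower in the nuclear lists, and 9 and 35 with the GC correction. Among the named nuclear genes the block called ELAC2 lower (edgeR adjusted p = 0.0305) and LONP1 higher (0.0302), and with the GC correction also POLRMT (0.0172) and SDHA (0.0136) lower. The block gave the same differences in shares.

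Signs turned as follows. Scaled to the mitochondrial total, log2 fold changes were 0.11 for MT-CO3, 0.0796 for MT-ND4, 0.0774 for MT-ND2, 0.0064 for MT-ATP6, 0.13 for MT-ND1, 0.17 for MT-RNR1, 0.16 for MT-ND4L, 0.0428 for MT-TN and 0.0058 for MT-TP. With the GC correction they were 0.014 for MT-ND1, 0.0209 for MT-ND4L, -0.0278 for NSUN2 and 0.0416 for COX4I1. With the replicate block they were 0.0106 for MT-RNR1, 0.0017 for MT-ND4L, -0.0255 for MT-TC and -0.0186 for MRPL14, and with the block and GC correction -0.0894 for MT-TC, -0.070 for MT-TY, -0.0259 for NSUN2 and 0.0365 for COX4I1. Without both libraries numbered 2 they were -0.0799 for MT-CYB, -0.26 for MT-TC, -0.13 for MT-TY, -0.18 for NDUFS8, -0.15 for MRPL14 and -0.0885 for MRPL49. With limma they were 0.0011 and 0.0012 for MT-RNR1, -0.0331 for MT-TC, and -0.0262 and -0.0264 for MRPL14. MT-TC was -0.0023 with DESeq2 size factors and the Wald test, -0.0266 without a filter, -0.0012 with at least 1 CPM in 3 libraries and -0.0218 with library sizes without mitochondrially encoded genes. Without a filter and with those library sizes, MT-TY was -0.0142 and -0.0101 and MRPL14 -0.0217 and -0.0174. By summed FPKM the light-strand share differed by 0.211 points.

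Leaving out 1 library at a time, log2 fold changes ran from -0.44 to 0.27 for MT-ATP8, -0.46 to 0.0163 for MT-CO2, -0.20 to 0.12 for MT-CO3, -0.0046 to 0.25 for MT-CYB, -0.26 to 0.17 for MT-ND1, -0.29 to 0.0704 for MT-ND2, -0.20 to 0.023 for MT-ND4, -0.16 to 0.21 for MT-ND4L, -0.14 to 0.21 for MT-RNR1, -0.24 to 0.12 for MT-TC, -0.34 to 0.11 for MT-TN, -0.37 to 0.10 for MT-TP and -0.31 to 0.19 for MT-TY. They ran from -0.24 to 0.14 for COX4I1, -0.48 to 0.14 for HSPD1, -0.25 to 0.16 for MRPL14, -0.14 to 0.37 for MRPL49, -0.27 to 0.28 for NDUFS8, -0.09 to 0.19 for NSUN2 and -0.50 to 0.0020 for TUFM. Differences in shares ran from -0.453 to 0.161 points for complex V, -0.0157 to 0.00066 for tRNA and -0.00448 to 0.00250 for nuclear copies. Depth limits the tRNA genes: MT-TV had at most 25 counts in a library, and 15 others were too low to test.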
